A study of Mus musculus with 12 samples.

Results

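The genes described here are 10 genes of the prostaglandin and lipoxygenase pathways, measured in skin wounds of mice treated with capsaicin (CAP), the pungent compound of chili peppers. They were picked by gene name as Ptgs1, Ptgs2, Ptges, Ptger2, Ptger4, Hpgd, Alox5, Alox5ap, Alox12 and Alox15, and all 10 were found among the 55487 genes that each table lists. Male C57BL/6JNarl mice of 6 weeks carried 2 full-thickness punch wounds of 6 mm on the back, and 200 µl of Pluronic F127 gel (P-F127) was applied once daily, either alone (sham group) or with 10 µM CAP (CAP-treated wounds). RNA of the wound and the tissue around it was sequenced at day 3 and day 6, with 3 libraries for sham day 3, 3 for CAP day 3, 3 for sham day 6 and 3 for CAP day 6. All groups thus share the strain, the wound and the gel, and no unwounded skin was analysed here. No source used here says which mouse a library comes from, so the p values measure the spread between libraries, which may be technical in part. The comparisons ask how CAP in the gel and the day after wounding bear on the RNA of enzymes and receptors that make, sense and remove these lipid mediators.

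Prostaglandins and leukotrienes are signaling lipids made from arachidonic acid, which phospholipases free from membranes. The cyclooxygenases Ptgs1, usually constitutive, and Ptgs2, usually induced by injury and cytokines, make the precursor from which Ptges forms prostaglandin E2. Ptger2 and Ptger4 are receptors of prostaglandin E2 that couple to cyclic AMP, and Hpgd starts its breakdown. On the other branch, Alox5 with its helper protein Alox5ap starts leukotriene synthesis, while Alox12 and Alox15 add oxygen to other positions of arachidonic acid. In wounded skin, these lipids are known for their roles in pain, vessel tone, leukocyte entry and its resolution.

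Each value is in TPM, a share of all the RNA molecules of a library that is already divided by gene length, so levels of different genes can be set beside each other. TPM carries no read count, so depth and counting error are unknown. The number of genes at 0.3 TPM or more was 18533 to 19325 per library. Keratinocyte markers were present in all libraries, with 8 of 8 at 0.3 TPM or more throughout, as were 6 of 6 fibroblast and 8 of 8 monocyte and macrophage markers, which fits wounded skin as the label says. CAP day 6 replicate 2 stood apart. Its summed neutrophil markers were 295 TPM against 1269 to 6206 TPM in the other 11 libraries, its summed keratinocyte markers were 97431 TPM against at most 73113 TPM, and its 10 most abundant genes held 14.1% of its TPM against 8.27% to 11.3%.

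Ptgs2 was called both between CAP-treated and sham wounds at day 6 and over time in the sham group, while its sister gene Ptgs1 was called in neither comparison, so the starts of both genes are shown from RefSeq. Each window runs from 250 bases before to 30 bases after the start, 5′ to 3′, on GRCm38.p6. The Ptgs2 window is chr1:150099781-150100060 on the plus strand, and the Ptgs1 window is chr2:36230176-36230455 on the plus strand. Capitals mark matches, on either strand, to 6 short motifs: a TATA box (TATAAA), an E-box (CACGTG), a CRE core motif (TGACG), a GC box (GGGCGG), an AP-1 motif (TGANTCA) and a C/EBP motif (TTNNGCAA).
Ptgs2: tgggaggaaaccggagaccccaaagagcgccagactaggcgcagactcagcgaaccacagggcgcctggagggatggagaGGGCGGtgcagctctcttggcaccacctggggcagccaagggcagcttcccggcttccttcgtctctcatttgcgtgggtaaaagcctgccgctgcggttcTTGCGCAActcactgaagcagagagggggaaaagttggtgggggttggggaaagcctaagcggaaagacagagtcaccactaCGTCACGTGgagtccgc
Ptgs1: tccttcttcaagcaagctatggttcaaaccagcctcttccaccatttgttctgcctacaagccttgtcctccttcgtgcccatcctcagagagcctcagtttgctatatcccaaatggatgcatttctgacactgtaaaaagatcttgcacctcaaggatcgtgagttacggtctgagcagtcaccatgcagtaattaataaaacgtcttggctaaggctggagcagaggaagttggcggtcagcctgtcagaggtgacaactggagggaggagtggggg
The Ptgs2 window held a GC box at bases 81 to 86, a C/EBP match at bases 182 to 189, a CRE core motif on the other strand at bases 264 to 268 and an E-box at bases 267 to 272, counted from its first base. The last 2 of these overlap and lie after the annotated start. Of 32851 promoters of the same length, 34.7% held the GC box, 10.4% the C/EBP motif, 19.9% the CRE core motif and 6.79% the E-box. The Ptgs1 window held no match to any of the 6, which says only that these letters are not in this window. A link between the matches and the level of either gene was not tested. Of the 10 genes, 8 had a promoter entry (Alox5ap and Alox15 had none), and the GC box was found in those of Ptgs2, Ptges, Ptger4, Hpgd, Alox5 and Alox12.

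By level, Alox5ap, Ptgs1 and Ptges were the top 3 genes in every group, with group means from 89.7 to 185 TPM, and Hpgd followed at 29.0 to 36.2 TPM. The group means of Ptger4, Alox5 and Alox12 lay between 10.7 and 19.2 TPM, and Ptger2 and Alox15 were the lowest 2 in every group. Ptgs2 moved within this order. Its rank was 7 in CAP day 3 and 6 in sham day 3, where its range overlapped those of Ptger4 and Alox5, but 4 in sham day 6, above the mean of Hpgd, although the ranges of Ptgs2 and Hpgd overlapped there. In CAP day 6 its rank was 6 again, with a range that overlapped those of Alox12 and Ptger4. Ptgs1 and Ptges overlapped in range in 3 of the 4 groups, and in CAP day 6 Ptgs1 at 133 to 196 TPM lay above Ptges at 71.3 to 103 TPM. Over the 12 libraries the highest value was 16.2 times the lowest for Alox15, 6.81 times for Ptger2 and 6.76 times for Ptgs2, against 1.58 times for Ptges and 1.66 times for Hpgd.

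**Figure D1:**
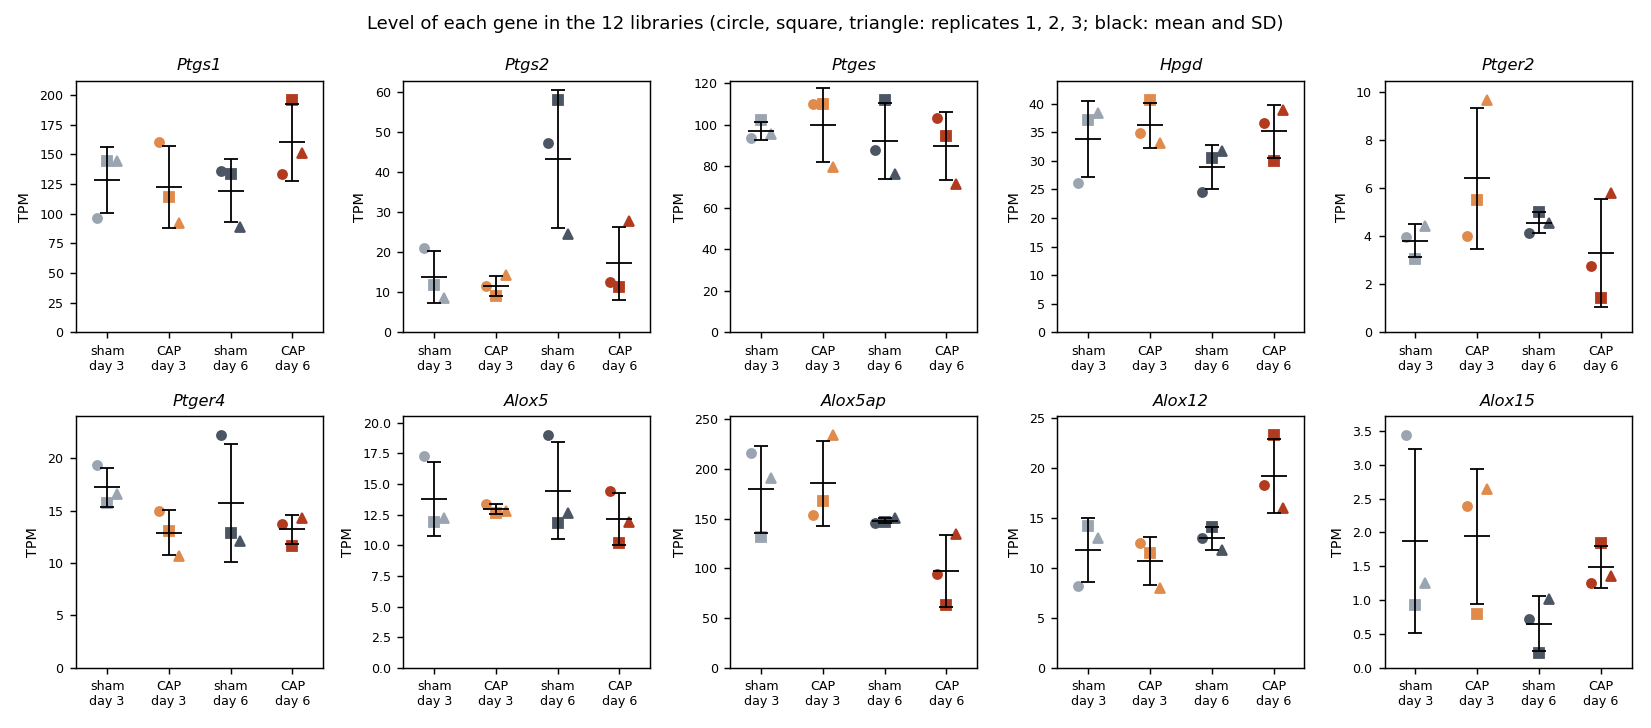
Level of the 10 genes in TPM (linear axis from 0) in each library of the 4 groups, with circles, squares and triangles for replicates 1, 2 and 3 and black bars for the mean and SD of 3 libraries. Ptgs2 reached 24.4 to 58.0 TPM in the sham group at day 6 and 8.58 to 27.7 TPM in the other 3 groups, and Ptges kept between 71.3 and 112 TPM throughout.

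Differences were tested on log2(TPM + 0.1) with limma across all genes that averaged 0.3 TPM or more in each group compared, and all 10 genes passed this filter in each comparison. A gene was called where its unadjusted p was under 0.05 and it differed by 2-fold or more, and adjusted p values are over all genes tested. At day 3, 0 of the 10 genes were called between CAP-treated and sham wounds, where 1.58% of all 18330 genes were. At day 6, 2 of the 10 genes were called, Ptgs2 lower and Alox15 higher in CAP-treated wounds, where 3.80% of 18323 genes were called, 2.34% lower and 1.46% higher. From day 3 to day 6, 1 of the 10 genes, Ptgs2, was called in the sham group and was higher at day 6, where 3.75% of 18368 genes were called and 2.13% were higher, and 0 of 10 in the CAP group, where 2.79% of 18202 were. For the difference between the CAP effects at the 2 days, 0 of 10 were called, and 4.90% of 20267 genes were. With no limit on the size of the difference, an unadjusted limma p under 0.05 was found for 1 of the 10 genes at day 3 (6.60% of all genes), 4 at day 6 (19.2%), 1 in the sham group over time (16.0%), 2 in the CAP group over time (11.6%) and 0 for the difference between the days (11.3%). None of the 10 had a limma adjusted p under 0.05 in any of these comparisons, and neither did most other genes, at 0.0164% of all genes at day 3, 0.00% at day 6, 2.29% in the sham group over time, 0.00549% in the CAP group over time and 0.00% for the difference. At day 6 this rested on CAP replicate 3, without which 519 genes were higher and 911 lower at an adjusted p under 0.05, among them Ptgs2 (0.0415) and Alox5ap (0.0378). Each group of 3 libraries enters 2 of these comparisons between groups, so their results are not independent. The median log2 difference of all genes at day 6 was −0.12, and it became −0.01 with median-ratio scaling and 0.00 with quantile normalization. Without CAP day 6 replicate 2, the library that stood apart, the count of called genes among the 10 at day 6 was 1 in place of 2, and Ptgs1 then differed by 0.28, Ptges by −0.09, Ptger4 by −0.11, Hpgd by 0.39, Alox5 by −0.11 and Alox12 by 0.40 on the log2 scale. The values of the other 4 genes without it stand beside their own results.

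Ptgs2 (chr1:150100031-150108227, plus strand, GRCm38, a protein-coding gene that overlaps no other annotated gene) encodes the inducible cyclooxygenase. At day 3 it measured 21.1, 11.8 and 8.58 TPM in the sham group and 11.5, 9.03 and 14.2 TPM in the CAP group. At day 6 it measured 47.3, 58.0 and 24.4 TPM in the sham group and 12.5, 11.3 and 27.7 TPM in the CAP group. The 3 sham libraries of day 6 all lay above the 3 of day 3, which held for no other of the 10 genes in this comparison and for 21.4% of all genes in either direction, whereas in the CAP group the days overlapped, and at day 6 CAP replicate 3 lay above sham replicate 3. Ptgs2 thus rose from day 3 to day 6 in the sham group, from 13.8 ± 6.47 to 43.2 ± 17.2 TPM (SD, n = 3 each), a log2 difference of 1.65 ± 0.40 (SE). The adjusted p for this rise was 0.0931 by limma, with an unadjusted p of 0.00437. It was 0.0390 with the replicate number as a block and 0.0464 without sham day 3 replicate 1, and otherwise stayed above 0.05. The exact permutation p was 0.1, the smallest that 3 against 3 libraries can give. In the CAP group it averaged 11.6 ± 2.60 TPM at day 3 and 17.2 ± 9.13 TPM at day 6 (SD, n = 3 each), a log2 difference of 0.46 with a 95% interval of −0.40 to 1.32, and 0.70 without CAP day 6 replicate 2.

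At day 6 Ptgs2 was lower in CAP-treated than in sham wounds by a log2 difference of −1.36 ± 0.43 (SE), which is 2.57-fold, with a 95% interval of −2.37 to −0.35. The unadjusted limma p was 0.0156 and the adjusted p 0.217, the 2-sided exact permutation p was 0.2, and the ranges of the groups overlapped. At day 3 the log2 difference was −0.17, with an interval of −0.97 to 0.62. The difference between the effects at the 2 days was −1.19 on the log2 scale, with an interval of −2.51 to 0.14 and a limma adjusted p of 0.461, so the effect of CAP was not shown to differ between the days. It passed the unadjusted threshold without CAP day 6 replicate 3 (−1.59), sham day 3 replicate 1 (−1.54) or sham day 6 replicate 3 (−1.55), and was −0.95 without CAP day 6 replicate 2. Leaving out sham replicate 1 (−1.25), sham replicate 2 (−1.10) or CAP replicate 1 (−1.19) ended the day 6 call, and it was kept at −1.12 without CAP replicate 2 and at −1.76 without CAP replicate 3. The rise in the sham group stayed past the threshold without any 1 of its 6 libraries, at 1.36 to 2.01. At day 6 the summed keratinocyte markers were 30321 to 36790.0 TPM in sham and 46997 to 97431 TPM in CAP libraries. Krt1 and Krt10, keratins of differentiating keratinocytes, held most of this gap. The sums of the other 6 markers overlapped at 17727 to 23076 and 17260.3 to 37189 TPM, although Krt5 and Dsp among them did not overlap and were higher in each CAP library. The monocyte and macrophage markers summed to 7126 to 10110.1 TPM in sham and 4129 to 9354 TPM in CAP libraries, the 6 fibroblast markers to 19608 to 26189 and 15743 to 21522 TPM, and the neutrophil markers to 1833 to 3397 and 295 to 2706 TPM. CAP replicate 3, the highest CAP library for Ptgs2, was also the highest of the 3 in macrophage and fibroblast markers and the lowest in keratinocyte markers. Leaving out Krt1 and Krt10, a choice made after their values were seen, kept it the lowest in keratinocyte markers. S100a8 and S100a9, which held most of the neutrophil sums, were highest in CAP replicate 1. The other markers of the neutrophil list were each highest in CAP replicate 3. Csf3r among them measured 37.1, 26.0 and 142 TPM in CAP replicates 1, 2 and 3. Sham libraries of day 6 had another order in the macrophage, fibroblast and keratinocyte sums. There replicate 2 had the highest Ptgs2 (58.0 TPM), the lowest macrophage and fibroblast markers (7126 and 19608 TPM) and the highest keratinocyte markers (36790.0 TPM). Sham replicate 3 had the lowest Ptgs2 (24.4 TPM) and the highest macrophage markers (10110.1 TPM). The part of these shifts in the Ptgs2 result was not tested, and in whole tissue fewer cells of a type and less RNA per cell cannot be told apart.

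Ptgs1 (chr2:36230426-36252272, plus strand), the constitutive cyclooxygenase, stood at 96.0, 144 and 144 TPM in sham and 160.1, 114 and 92.4 TPM in CAP libraries at day 3. At day 6 it stood at 136, 133 and 89.1 TPM in sham and 133, 196 and 151 TPM in CAP libraries. The groups overlapped at both days. The day 6 means were 119 ± 26.0 and 159.9 ± 32.3 TPM (SD, n = 3 each), a log2 difference of 0.43 with an interval of −0.06 to 0.93 and a limma adjusted p of 0.302. Its gene overlaps the unconfirmed transcript Gm43621 on the opposite strand, and no source used here says how strand was treated. The ratio of Ptgs2 to Ptgs1 within a library does not depend on how libraries are scaled. It was 0.0595 to 0.219 in sham day 3, 0.0721 to 0.154 in CAP day 3, 0.274 to 0.437 in sham day 6 and 0.0577 to 0.184 in CAP day 6. The inducible gene thus stayed below the constitutive gene in all 12 libraries, and the 3 sham libraries of day 6 had the highest ratios, all above those of the other 9 libraries.

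**Figure D2:**
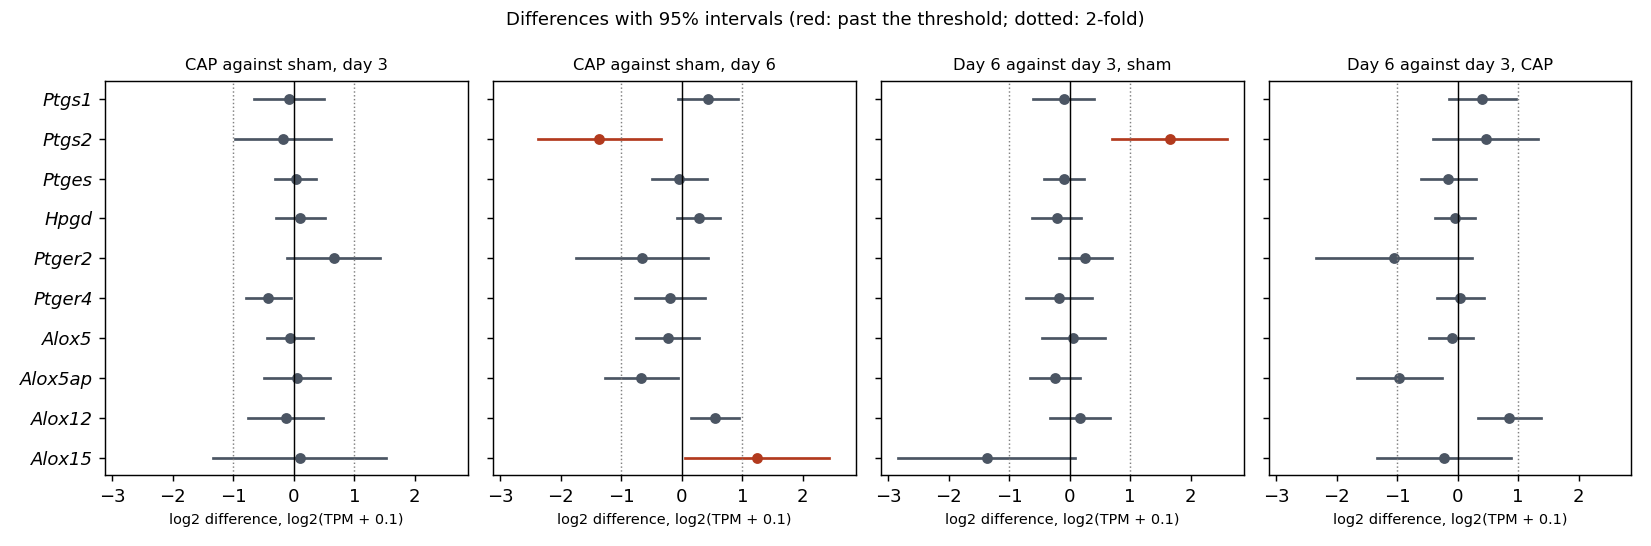
Log2 differences of the 10 genes on the scale log2(TPM + 0.1), with 95% intervals from limma, for CAP against sham at each day and for day 6 against day 3 in each treatment (3 libraries against 3). Red marks the 3 calls past the unadjusted threshold, Ptgs2 at −1.36 and Alox15 at 1.25 at day 6 and Ptgs2 at 1.65 in the sham group over time, and the dotted lines mark a 2-fold difference.

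Ptges (chr2:30889471-30929863, minus strand), the inducible synthase that turns the cyclooxygenase product into prostaglandin E2, was the steadiest of the 10 genes. It measured 93.4, 102 and 95.3 TPM in sham and 110.1, 109.9 and 79.4 TPM in CAP libraries at day 3, and 88.0, 112 and 76.1 TPM in sham and 103, 94.6 and 71.3 TPM in CAP libraries at day 6. The groups overlapped at both days. The log2 difference was 0.03 at day 3, with an interval of −0.31 to 0.36, and −0.04 at day 6, with an interval of −0.49 to 0.41, the latter changing sign to 0.07 with median-ratio scaling and 0.02 with quantile normalization. Differences of 2-fold in either direction thus lay outside these intervals.

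Hpgd (chr8:56294585-56321043, plus strand), the dehydrogenase that inactivates prostaglandin E2, measured 26.2, 37.1 and 38.3 TPM in sham and 34.8, 40.7 and 33.1 TPM in CAP libraries at day 3. At day 6 it measured 24.6, 30.5 and 31.8 TPM in sham and 36.6, 29.9 and 38.9 TPM in CAP libraries, and the groups overlapped at both days. The day 6 log2 difference was 0.28, with an interval of −0.08 to 0.63. The ratio of Ptgs2 to Hpgd, a synthesis gene over a breakdown gene, was 0.766 to 1.93 in sham day 6 and 0.342 to 0.712 in CAP day 6, without overlap. At day 3 it was 0.224 to 0.803 in sham and 0.222 to 0.430 in CAP libraries. The ratio of Ptges to Hpgd was 1.83 to 3.69 over the 12 libraries and overlapped between sham and CAP at each day.

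The receptors of prostaglandin E2 were measured at lower levels than its synthase. Ptger4 (chr15:5206661-5244187, minus strand) measured 19.3, 15.7 and 16.6 TPM in sham and 15, 13 and 10.7 TPM in CAP libraries at day 3, so that each CAP library lay below each sham library. The groups did not overlap for 1 of the 10 genes at this day, Ptger4, where 11.6% of all genes did not. Its log2 difference was −0.42 ± 0.15 (SE), with a limma p of 0.0309 unadjusted and 0.720 adjusted and an exact permutation p of 0.1, under the 2-fold limit. At day 6 Ptger4 measured 22.2, 12.9 and 12.1 TPM in sham and 13.7, 11.6 and 14.3 TPM in CAP libraries, which overlap, and the log2 difference was −0.20 with an interval of −0.78 to 0.38. Exons of Ptger4 overlap those of the protein-coding gene Ttc33 on the opposite strand, so its level is uncertain where strand was not used.

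Ptger2 (chr14:44988195-45003820, plus strand) measured 3.95, 3.06 and 4.41 TPM in sham and 4.02, 5.52 and 9.67 TPM in CAP libraries at day 3, and 4.11, 5 and 4.56 TPM in sham and 2.74, 1.42 and 5.79 TPM in CAP libraries at day 6. The CAP libraries were spread more widely than the sham libraries at both days, by 2.41 and 4.08 times from lowest to highest against 1.44 and 1.22 times. The log2 difference between CAP and sham was 0.66 at day 3, with an interval of −0.12 to 1.43, and −0.66 at day 6, with an interval of −1.75 to 0.43. The difference between these effects was −1.32 on the log2 scale, with an interval of −2.67 to 0.04 and a limma adjusted p of 0.444. Over time in the CAP group the log2 difference was −1.05, with an interval of −2.34 to 0.23. Without CAP day 6 replicate 3, Ptger2 passed the unadjusted threshold at day 6 (−1.16), over time in the CAP group (−1.55) and for the difference between the days (−1.82), and without CAP day 3 replicate 1 for the last of these (−1.60). Without CAP day 6 replicate 2, its lowest library, the same 3 values were −0.18, −0.58 and −0.84, with none past the threshold. Within the CAP group, replicate 3 was the highest library for Ptger2 at each day. It was the highest in summed monocyte and macrophage markers too, at 10386 TPM at day 3 and 9354 TPM at day 6. Lyz2 held most of both sums, at 7576 and 7525 TPM. Ccr2 of the same list was lowest in replicate 3 at day 3, where the other markers were highest. Ccr2 and Mrc1 were highest in replicate 1 at day 6. In the sham group at day 3, replicate 3 was highest for Ptger2 and replicate 1 in these sums (5803 TPM). Replicate 2 was lowest in both there. At day 6, sham replicate 2 was highest for Ptger2 and lowest in these sums (7126 TPM). Itgam and Cd14 of the list were highest in that library, at 186 and 155 TPM, and its other markers were not. The part of monocytes and macrophages in the Ptger2 values was not tested. Antisense genes overlap its exons (Gm49364 and Gm17173).

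On the leukotriene branch, Alox5 and Alox5ap were set apart by their levels. Alox5 (chr6:116410077-116461178, minus strand), the 5-lipoxygenase itself, measured 17.3, 11.9 and 12.2 TPM in sham and 13.4, 12.6 and 12.8 TPM in CAP libraries at day 3, and 19.0, 11.8 and 12.6 TPM in sham and 14.4, 10.2 and 11.9 TPM in CAP libraries at day 6. The groups overlapped at both days, with log2 differences of −0.07 (interval −0.45 to 0.31) and −0.23 (interval −0.75 to 0.29). Alox5ap (chr5:149264767-149288153, plus strand), the membrane protein that hands arachidonic acid to Alox5, measured 216, 131 and 191 TPM in sham and 154, 168 and 234 TPM in CAP libraries at day 3. At day 6 it measured 146, 147 and 151 TPM in sham and 94.6, 63.2 and 135 TPM in CAP libraries. Each CAP library of day 6 lay below each sham library, and also below each CAP library of day 3.

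The log2 difference of Alox5ap at day 6 was −0.67 ± 0.25 (SE), or 1.59-fold lower, with a limma p of 0.0339 unadjusted and 0.238 adjusted and an exact permutation p of 0.1. From day 3 to day 6 in the CAP group it was −0.97 ± 0.29 (SE), with a limma p of 0.0143 unadjusted and 0.345 adjusted, just under the 2-fold limit. Neither difference was called, although the second passed the threshold without CAP day 3 replicate 1 (−1.09), CAP day 3 replicate 2 (−1.02) or CAP day 6 replicate 3 (−1.23). The difference between the CAP effects at the 2 days was −0.72, with an interval of −1.54 to 0.10. Without CAP day 6 replicate 2 these 3 values were −0.39, −0.69 and −0.44. In the CAP day comparison, 2 of the 10 genes had groups that did not overlap, Alox5ap and Alox12, where 17.7% of all genes had. In the sham group the days overlapped, with a log2 difference of −0.25. The ratio of Alox5ap to Alox5 was 11.0 to 15.7 in sham day 3, 11.5 to 18.3 in CAP day 3, 7.69 to 12.4 in sham day 6 and 6.23 to 11.3 in CAP day 6. The library with the lowest Alox5ap, CAP day 6 replicate 2, was the library with the lowest neutrophil markers (295 TPM) and the lowest macrophage markers of its day (4129 TPM). In the sham group, macrophage markers summed to 4017 to 5803 TPM at day 3 and 7126 to 10110.1 TPM at day 6. Lyz2 held most of these sums, at 2641 to 3954 and 5356 to 8049 TPM. Each other marker of the list overlapped between the days, and the means of Itgam and Ccr2 fell. Neutrophil sums overlapped between the days in the sham group, at 1831 to 6206 and 1833 to 3397 TPM, mostly through S100a8 and S100a9. Of that list only Mmp8 did not overlap, at 7.18 to 27.0 and 28.2 to 40.1 TPM. Mean Alox5ap was 179 and 148 TPM in the same groups. The part of these cells in the Alox5ap values was not tested. An antisense gene (Gm19719) overlaps exons of Alox5ap.

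Alox12 (chr11:70241457-70255353, minus strand), a lipoxygenase known from platelets and also found in epidermis, measured 8.19, 14.2 and 13 TPM in sham and 12.5, 11.5 and 7.94 TPM in CAP libraries at day 3, which overlap. At day 6 it measured 13, 14.1 and 11.8 TPM in sham and 18.3, 23.3 and 16 TPM in CAP libraries, so that each CAP library lay above each sham library. The groups did not overlap at day 6 for 3 of the 10 genes, Alox12, Alox15 and Alox5ap, where 26.0% of all genes did not. The means of Alox12 were 13 ± 1.17 and 19.2 ± 3.74 TPM (SD, n = 3 each), a log2 difference of 0.55 ± 0.17 (SE) with a limma p of 0.0127 unadjusted and 0.212 adjusted and an exact permutation p of 0.1. Over time in the CAP group the log2 difference was 0.85 ± 0.22 (SE), with a limma p of 0.00660 unadjusted and 0.30 adjusted. Both lay under the 2-fold limit, and the difference between the CAP effects at the 2 days was 0.68, with an interval of −0.04 to 1.41.

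Alox12 is known in keratinocytes and platelets, and the markers within each list did not all move alike. In CAP day 6 libraries, Alox12 and the pair Krt1 and Krt10 were highest in replicate 2, then replicate 1 and replicate 3. Krt1 measured 16381, 29718 and 12748 TPM and Krt10 measured 19544, 40801 and 16989 TPM in replicates 1, 2 and 3. The other 6 keratinocyte markers summed to 37189, 26912 and 17260.3 TPM in the same libraries, which is a different order, although Krt5 among them had the order of Alox12. At day 3 both Alox12 and the summed keratinocyte markers were lowest in sham replicate 1 among sham libraries and in CAP replicate 3 among CAP libraries. Of the 8 platelet markers, 4 reached 0.3 TPM in all libraries, and Pf4, which is also made by other blood cells, held most of their sum. Pf4 measured 234 to 396 TPM in sham and 438 to 509.5 TPM in CAP libraries at day 3, and 133 to 191 TPM in sham and 72.9 to 131 TPM in CAP libraries at day 6. Ppbp measured 12.2 to 33.8 TPM in sham and 25.6 to 54.0 TPM in CAP libraries at day 3. At day 6 it measured 1.63 to 2.79 TPM in sham and 0.751 to 1.14 TPM in CAP libraries, without overlap. The platelet integrin Itga2b lay between 5.32 and 10.4 TPM over the 12 libraries and overlapped between all groups. Treml1 lay between 0.478 and 3.13 TPM and overlapped between sham and CAP libraries at day 6. The part of either cell type in the Alox12 values was not tested. Of the 31-base stretches of Alox12 transcripts, 1.28% are shared with another gene, most with Gm26648.

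**Figure D3:**
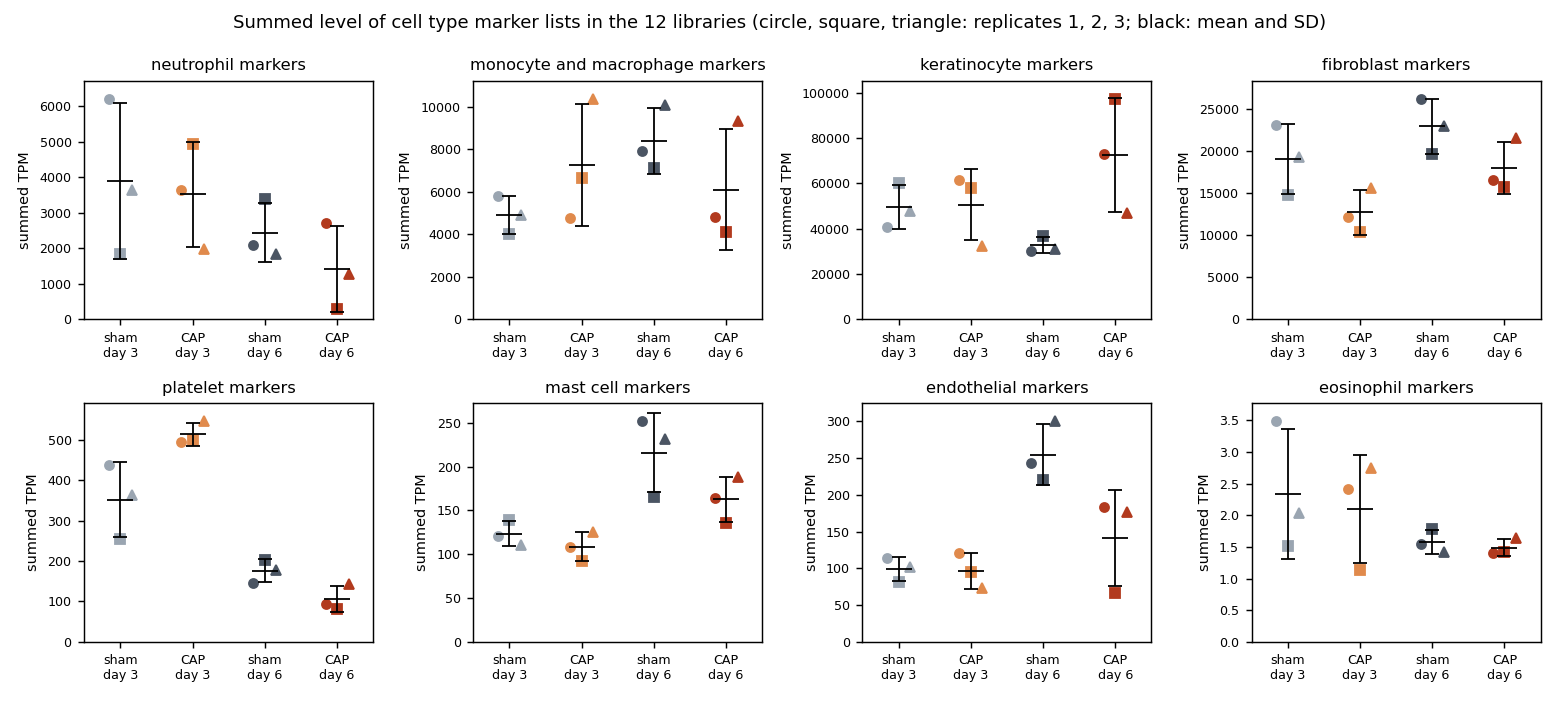
Summed TPM of 8 cell type marker lists (linear axes from 0) in each library, with circles, squares and triangles for replicates 1, 2 and 3 and black bars for the mean and SD of 3 libraries. At day 6 the keratinocyte sum was 46997 to 97431 TPM in CAP and 30321 to 36790.0 TPM in sham libraries, and the endothelial sum was 66.3 to 183 TPM against 219.8 to 300.4 TPM, both without overlap, the former mostly through Krt1 and Krt10.

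Alox15 (chr11:70344152-70352031, minus strand), the 12/15-lipoxygenase known from macrophages and eosinophils, was the lowest of the 10 genes. It measured 3.44, 0.935 and 1.26 TPM in sham and 2.39, 0.795 and 2.64 TPM in CAP libraries at day 3, and 0.718, 0.212 and 1.02 TPM in sham and 1.26, 1.84 and 1.36 TPM in CAP libraries at day 6. At day 6 each CAP library lay above each sham library. Alox15 was higher in CAP-treated wounds there, with means of 1.49 ± 0.309 against 0.649 ± 0.407 TPM (SD, n = 3 each) and a log2 difference of 1.25 ± 0.50 (SE), or 2.38-fold. The interval ran from 0.06 to 2.44, the limma p was 0.0424 unadjusted and 0.248 adjusted, and the exact permutation p was 0.1. This call rested on the settings. It was lost without CAP replicate 1 (1.35), CAP replicate 2 (1.10), CAP replicate 3 (1.30), sham replicate 1 (1.41) or sham replicate 2 (0.71), with a pseudocount of 1 TPM (0.62), and in the joint fit, the replicate block and the fit without a filter (1.25 each). In the sham group the log2 difference from day 3 to day 6 was −1.37, with an interval of −2.84 to 0.09, and past the threshold without sham day 3 replicate 2 (−1.74) or sham day 6 replicate 3 (−1.76), and at day 3 CAP and sham differed by 0.10, with an interval of −1.33 to 1.53. Of 5 eosinophil markers, Siglecf (0.308 to 1.88 TPM) and Ccr3 (0.412 to 1.39 TPM) reached 0.3 TPM in all 12 libraries, at levels like those of Alox15, while Epx stood at 0.0001 TPM, the value in place of 0, in all of them. At day 6 the eosinophil markers summed to 1.42 to 1.79 TPM in sham and 1.40 to 1.64 TPM in CAP libraries. The monocyte and macrophage markers summed to 7126 to 10110.1 TPM in sham and 4129 to 9354 TPM in CAP libraries, with means of 8391 and 6107 TPM. Both sums overlapped between sham and CAP libraries there. Lyz2 held most of the macrophage sums, and Siglecf and Ccr3 held most of the eosinophil sums. The part of either cell type in the Alox15 values was not tested.

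Of the other genes of the pathway, 56 were listed in 7 groups by role and 55 were in the tables. At day 3, 51 of these could be tested, and 0 were higher and 2 lower in CAP-treated wounds, where 0.426% of all genes were higher and 1.16% lower. Cbr2, a carbonyl reductase that can act on prostaglandins, measured 343, 223 and 317 TPM in sham and 191, 82.7 and 137 TPM in CAP libraries, a log2 difference of −1.16 with a limma adjusted p of 0.562. Gpr18, a receptor proposed for a resolvin, measured 0.755 to 1.07 TPM in sham and 0.184 to 0.420 TPM in CAP libraries, a log2 difference of −1.39 with a limma adjusted p of 0.544. The Cbr2 call was lost without CAP replicate 2 (−0.84) and the Gpr18 call with a pseudocount of 1 TPM (−0.57). The mean of Gpr18 in the CAP group was 0.301 TPM, and without CAP replicate 1 it fell under the filter and was not tested. The median log2 difference of the 51 genes was −0.04, beside −0.05 over all genes.

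At day 6, 2 of 51 tested genes were higher and 2 lower in CAP-treated wounds, where 1.46% of all genes were higher and 2.34% lower, and their median log2 difference was −0.12, the same as that of all genes. The lower genes were Ptgis and Ptgir. Ptgis, the prostacyclin synthase, measured 67.5, 52.1 and 52.9 TPM in sham and 25.4, 19.3 and 37.7 TPM in CAP libraries, a log2 difference of −1.11 (limma adjusted p = 0.205). Ptgir, the prostacyclin receptor, measured 7.16, 6.76 and 6.08 TPM in sham and 2.41, 1.62 and 3.90 TPM in CAP libraries, a log2 difference of −1.38 (limma adjusted p = 0.205). Each CAP library lay below each sham library for both genes. The Ptgis call was lost without CAP replicate 2 (−0.88), without sham replicate 1 (−0.99) and with median-ratio scaling (−1.0), and the Ptgir call was kept in all 13 alternatives. Endothelial markers were present in all libraries, 5 of 5. At day 6 they summed to 219.8 to 300.4 TPM in sham and 66.3 to 183 TPM in CAP libraries. Of them, Tek overlapped, at 13.4 to 18.3 TPM in sham and 15.1 to 16.9 TPM in CAP libraries, and the others did not. In sham day 3 libraries the sum was lower, at 81.9 to 114 TPM. From sham day 3 to sham day 6, mean Ptgis went from 51.0 to 57.5 TPM and mean Ptgir from 6.13 to 6.66 TPM. The part of endothelial cells in the Ptgis and Ptgir values was not tested.

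The higher genes at day 6 were Akr1c18, an aldo-keto reductase of the prostaglandin F and progesterone pathways, and Mgst2, which can form leukotriene C4. Akr1c18 measured 13.6, 11.6 and 11.2 TPM in sham and 25.1, 66.2 and 28.3 TPM in CAP libraries, a log2 difference of 1.57 (limma adjusted p = 0.205). Mgst2 measured 8.45, 6.71 and 7.15 TPM in sham and 22.4, 20.2 and 10.4 TPM in CAP libraries, a log2 difference of 1.17 (limma adjusted p = 0.206). The groups did not overlap for either gene, and the Mgst2 call was lost without CAP replicate 1 (0.96). Without CAP replicate 2, Akr1c18 differed by 1.13, Mgst2 by 1.04 and Ptgir by −1.09 on the log2 scale. Of the other lists, 12 tested phospholipase genes, 5 genes of transport and breakdown, 4 further lipoxygenases and 4 genes of resolution had 0 members called at day 6.

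**Figure D4:**
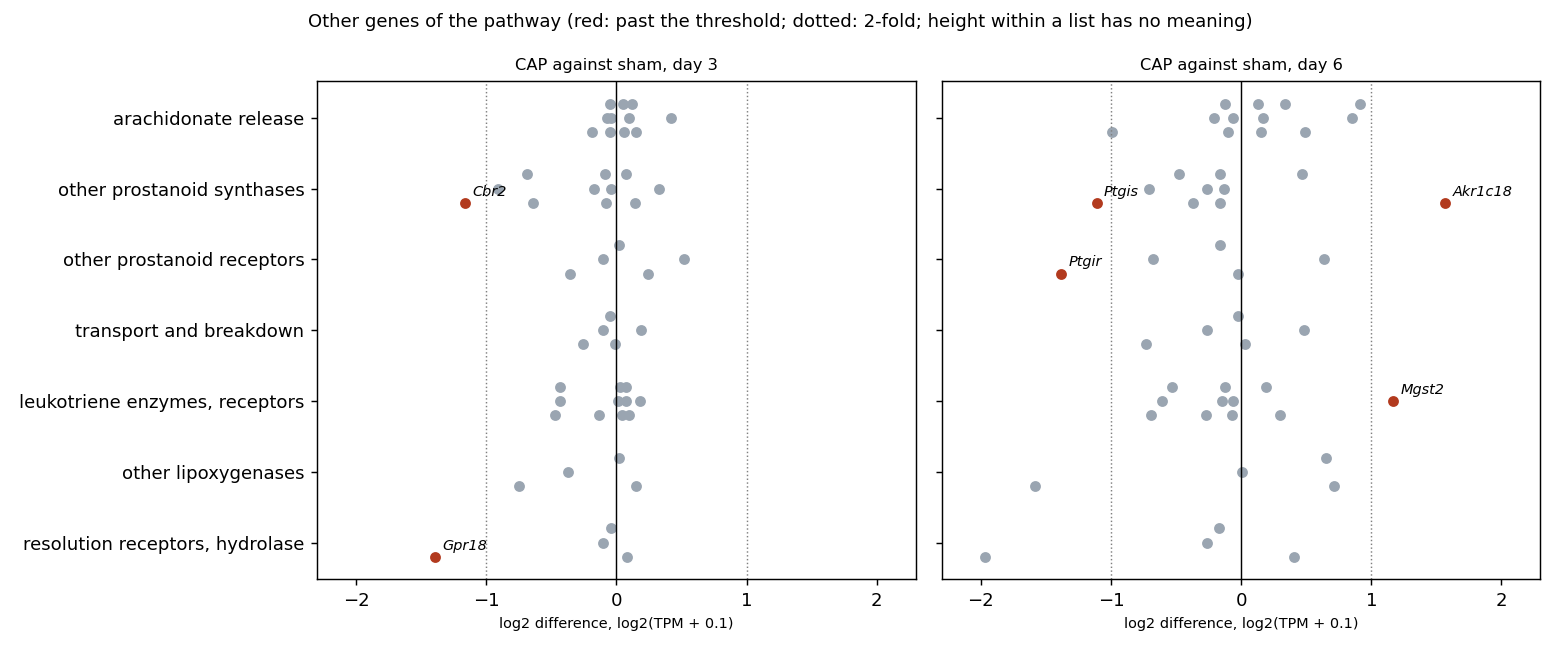
Log2 differences between CAP-treated and sham wounds on the scale log2(TPM + 0.1) for the tested genes of 7 pathway lists, at day 3 and at day 6. Each point is a gene, red marks genes past the unadjusted threshold (Cbr2 and Gpr18 lower at day 3, Ptgis and Ptgir lower and Akr1c18 and Mgst2 higher at day 6), and the dotted lines mark a 2-fold difference.

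From day 3 to day 6 in the sham group, 0 of 52 tested pathway genes rose and 2 fell past the threshold, where 1.61% of all genes fell. Akr1c18 fell by 1.21 on the log2 scale (limma adjusted p = 0.199), from 14.3 to 49.3 TPM down to 11.2 to 13.6 TPM, a call that was lost without sham day 3 replicate 2, sham day 3 replicate 3, sham day 6 replicate 2 or sham day 6 replicate 3 (−0.81 to −1.18). Alox12e, an epidermal lipoxygenase, fell by 1.16 (limma adjusted p = 0.0915), from 112 to 122 TPM down to 33.8 to 81.2 TPM, and this call was lost without sham day 6 replicate 2 (−0.85). A further 2 genes had an adjusted p under 0.05 with less than a 2-fold change, where 2.29% of all genes had such a p. Ptgr1, a reductase that inactivates prostaglandins and leukotriene B4, went from 66.6, 85.9 and 68.6 TPM to 37.4, 33.9 and 40.5 TPM, a log2 difference of −0.98 (limma adjusted p = 0.0165). Hpgds, the prostaglandin D2 synthase of blood-borne cells, went from 70.9, 76.9 and 85.7 TPM to 138, 117 and 129.7 TPM, a log2 difference of 0.72 (limma adjusted p = 0.0227). In the joint fit of 12 libraries no gene of this comparison had an adjusted p under 0.05, and without sham day 3 replicate 3 only 1 had. Over 13 alternatives the limma adjusted p of Ptgr1 was 0.0149 to 0.0790, at 0.05 or above in 4, and that of Hpgds 0.0207 to 0.208, at 0.05 or above in 6. Markers of mast cells, which express Hpgds, summed to 111 to 139 TPM in sham day 3 and 165 to 252 TPM in sham day 6. Without Hdc, which held 65.2 of the 165 TPM in sham day 6 replicate 2, the sums were 75.1 to 124 and 99.9 to 203 TPM and overlapped. Monocyte and macrophage markers summed to 4017 to 5803 TPM in sham day 3 and 7126 to 10110.1 TPM in sham day 6. Lyz2 held most of these sums, at 2641 to 3954 and 5356 to 8049 TPM, and each other marker of the list overlapped. The part of either cell type in the Hpgds values was not tested.

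In the CAP group over the same days, 1 of 50 tested pathway genes rose and 2 fell, where 1.27% of all genes rose and 1.52% fell. Ptgir fell by 1.47 on the log2 scale (limma adjusted p = 0.320), from 4.90, 6.28 and 11.4 TPM to the day 6 values above. Dpep2, a dipeptidase that trims leukotriene D4, fell by 1.06 (limma adjusted p = 0.397), from 57.7, 50.2 and 110.0 TPM to 33.9, 20.3 and 50.5 TPM, which overlap, and Gpr18 rose by 1.11 (limma adjusted p = 0.396). The Dpep2 call was lost without any of CAP day 3 replicates 1 and 3 and CAP day 6 replicates 1 and 2 (−0.72 to −1.18). The Gpr18 call was lost without any of CAP day 3 replicates 2 and 3 and CAP day 6 replicates 1 and 3 (0.88 to 1.12) and with a pseudocount of 1 TPM (0.43).

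For genes whose group means span at least 1 on the log2 scale, the 3 genes with the most similar profile over the 12 libraries were sought among the 16168 genes that averaged 1 TPM or more. The measure is the root mean square difference of log2(TPM + 0.1) after each gene is centered on its own mean. For Ptgs2 these were Dusp4 (0.33), Tnfrsf9 (0.40) and Spata13 (0.41), where the spread of Ptgs2 around its own mean was 0.87. For Ptger2 they were Tlr13, Rin3 and Itgb2 (0.17 each, own spread 0.62). For Alox15 the nearest genes were more distant, with Gm31105 at 0.42, Ybx2 at 0.55 and Prkcz2 at 0.58 against an own spread of 0.89.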

How the data were processed

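RNA of 12 wound libraries was sequenced by the authors (SureSelect XT HS2 mRNA kit, paired-end reads of 150 bases, bcl2fastq, with Trimmomatic 0.36 and mm10 named in the submitters' processing notes) and expression was estimated with StringTie. The authors deposited 1 table per library with TPM for 55487 genes, in which 0.0001 stands in place of 0 and the values sum to between 1000003.08 and 1000003.23. There are 0 other columns with values of samples. The sources used here name no aligner, annotation release or strand setting. Coordinates are those of the tables, and 54777 genes had the same locus in GENCODE M21 (GRCm38). Sequences are from RefSeq on GRCm38.p6.

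TPM carries no depth, so the precision is that of 3 libraries per group. From the deposited TPM values, log2(TPM + 0.1) was compared with limma 3.58.1 in R 4.3.3 (intensity trend, not robust), in genes that averaged 0.3 TPM or more in each group compared, or in at least 1 of 4 groups for the difference between the days, which was fitted on all 12 libraries. A fold change on this scale understates the change of low genes. P values were adjusted over all genes tested by the Benjamini-Hochberg method, and a call needed an unadjusted p under 0.05 and a 2-fold difference, as in the study. Exact permutation tests were 2-sided, over the 20 divisions of 6 libraries. Ratios, marker sums and profiles were described without a test. Tables were read with Python 3.11.15, numpy 2.4.6 and pandas 2.3.3. The fit was tested on simulated data.

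The members and gene lists were chosen with earlier results of these data known. The text names the 10 members, up to 4 genes per pathway list and comparison past the threshold by smallest p, any with an adjusted p under 0.05, and the 3 genes of most similar profile. Dpep2 has 2 loci in the tables, and the more abundant one was used. One listed symbol, Fam213b, was not found, and the gene is counted under Prxl2b. The alternatives were a pseudocount of 1 or 0.01 TPM, no expression filter, a joint fit of 12 libraries, the replicate number as a block, median-ratio scaling, quantile normalization, and each library left out. Marker sums without Krt1 and Krt10 or without Hdc were added after the data were seen. The study's own comparisons were not used here.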

Additional observations from a re-analysis of the deposited data

Results flagged for a closer look

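For 4 genes of the pathway lists, the difference between the CAP effects at day 6 and day 3 passed the unadjusted threshold in the limma interaction test, each with an adjusted p of 0.428 and with no test of its cause. The difference was 2.21 on the log2 scale for Akr1c18, a reductase of the prostaglandin F pathway, whose CAP effect was −0.64 at day 3 and 1.57 at day 6. It was −1.62 for the prostacyclin receptor Ptgir, whose CAP effect was 0.24 at day 3 and −1.38 at day 6. For Pla2g7, which hydrolyzes platelet-activating factor, the difference was −1.41, from 0.42 to −0.99, and it was no longer past the threshold without CAP day 3 replicate 2 or 3, CAP day 6 replicate 2, sham day 3 replicate 2 or 3 or sham day 6 replicate 2 or 3 (−1.0 to −1.37). For Gpr18 it was 1.22, from −1.39 to −0.17, and it was lost without CAP day 3 replicate 2, CAP day 6 replicate 1 or 3, sham day 3 replicate 1 or sham day 6 replicate 2 (0.99 to 1.12) or with a pseudocount of 1 TPM (0.49).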

How the results depend on the processing

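Over 50 values of the 10 genes and 700 recalculations, 629 kept their direction and side of the threshold and 42 changed sign. The count of called genes at day 3 was 0 throughout. At day 6 it went from 2 to 1 with the joint fit of 12 libraries, no expression filter, a pseudocount of 1 TPM or the replicate block, and ranged from 0 to 2 with a library left out. In the sham group over time it went from 1 to 2 with the joint fit or the replicate block, which added Alox15 (1 to 2 with a library left out), in the CAP group from 0 to 1 with either, which called Ptger2 (0 to 2), and for the difference between the days from 0 to 1 with the replicate block, again Ptger2 (0 to 2). Libraries with the same replicate number did not deviate together (correlations of −0.11 to 0.20), so the numbers were not taken as pairs.

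With a library left out, these log2 differences crossed 0. Between CAP and sham at day 3 they were Ptgs1 −0.29 to 0.10, Ptgs2 −0.47 to 0.18, Ptges −0.05 to 0.18, Hpgd −0.07 to 0.21, Alox5 −0.16 to 0.10, Alox5ap −0.16 to 0.20, Alox12 −0.38 to 0.06 and Alox15 −0.26 to 0.63. At day 6 they were Ptges −0.17 to 0.12 and Ptger4 −0.36 to 0.08. Over time in the sham group they were Ptgs1 −0.30 to 0.09, Ptges −0.24 to 0.04, Alox5 −0.15 to 0.23 and Alox12 −0.07 to 0.32. Over time in the CAP group they were Ptges −0.31 to 0.00, Ptger4 −0.09 to 0.16, Hpgd −0.12 to 0.07, Alox5 −0.23 to 0.02 and Alox15 −0.74 to 0.07. For the difference between the days they were Ptges −0.22 to 0.09 and Alox5 −0.33 to 0.05. With another scaling, Ptges at day 6 became 0.07 (median-ratio) or 0.02 (quantile) and Hpgd over time in the CAP group 0.01 (quantile). The cause was not tested.

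Over all genes, a pseudocount of 1 TPM moved the calls from 290 to 154 at day 3, 697 to 385 at day 6, 688 to 405 over time in the sham group, 507 to 299 in the CAP group and 994 to 580 for the difference. Without the filter they were 568, 1028, 1156, 842 and 1207. Leaving out CAP day 3 replicate 1 gave 510 at day 3, CAP day 6 replicate 2 gave 311 at day 6 and 657 for the difference, and CAP day 6 replicate 3 gave 1483 at day 6, 886 in the CAP group and 1777 for the difference. At day 6, 268 genes were called higher and 429 lower, against 389 and 300 with median-ratio scaling and 406 and 244 with quantile normalization, and at day 3, 78 and 212 against 101 and 160 with the latter.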
